A study of Oryza sativa with 12 samples.

Results

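The effect of phosphate (Pi) withdrawal that wild-type rice and a PHR2 knockout have in common was measured in leaf RNA, in 12 of the 12 libraries of the series. Wild type was Oryza sativa ZH11 (called WT here), and the mutant, phr2, was labelled as a knockout of PHR2. All plants grew on MS medium at 0.5 strength. The 6 no Pi libraries, 3 per genotype, came from 3-week-old plants moved to the same medium without phosphorus and harvested on day 3. The 6 control libraries, 3 per genotype, were labelled as untreated, with no day of harvest given, so Pi supply cannot be told apart from a difference in age or handling. The labels do not say whether replicates are separate plants, so p-values speak only of the variation among the libraries at hand, which may be technical in part. Whether the mutant line is 1 clone or several is not given either. The comparison was no Pi against control with genotype held in the model, and it asks which genes differ in the same direction in both genotypes.

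Phosphate is a constituent of nucleic acids, membrane lipids, ATP and the sugar phosphates that photosynthesis makes. PHR2 is a MYB-type transcription factor that turns on many Pi starvation genes in rice, such as those for Pi uptake, acid phosphatases and lipid remodelling. The related factors PHR1 and PHR3 remain in the phr2 mutant. In plants short of Pi, leaves are known to lower photosynthesis and ribosome production and to recycle phosphate from RNA and lipids, which are the largest pools of organic phosphate in a leaf.

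Expression was given as FPKM, fragments per length and library size, summed per gene. PHR2 RNA was present in every group, at 27.5, 17.9 and 22.1 FPKM in WT control and 29.6, 26.1 and 21.4 FPKM in phr2 control, so it does not check the mutation, whose position is not given. Reads counted ranged from 10109727 to 13122430 per library, and the sum of FPKM from 1162552 to 2292700. That sum was lower without Pi, with means of 1275000 and 1626000 FPKM in no Pi and control (p = 0.035, two-sided exact permutation test within genotypes, in which the smallest p possible is 0.005, adjusted p = 0.0875 by Benjamini-Hochberg over 5 such measures). The ratio of reads counted to the library size implied by FPKM averaged 0.8921 in no Pi and 1.119 in control (p = 0.02, same permutation test, adjusted p = 0.0875). It was 1.484 and 1.318 in WT control 1 and 2, and 0.8232 in WT no Pi 2. FPKM values are divided by the implied size, so their sum depends on it as well as on the RNA. Its part in the differences below was not tested. The library labelled phr2 no Pi 3 was closest to WT no Pi 2 (Pearson r 0.968 across genes). Its r with the other WT libraries ran from 0.833 (WT control 1) to 0.95 (WT control 3). With phr2 no Pi 1 and phr2 no Pi 2, of its own group, it was 0.862 and 0.879, while those shared an r of 0.93. Whether its genotype is as labelled was not tested. Unless it is left out, the results below count it as phr2. The 2 libraries at the top of the sum, WT control 1 and 2, reached 2292700 and 1904486 FPKM. Leaf mesophyll markers, mainly small Rubisco subunits and antenna proteins, summed to 92395 to 157719 FPKM in WT control, 36925 to 52542 in WT no Pi, 78394 to 119059 in phr2 control and 55054 to 115798 in phr2 no Pi. Their median difference was −0.84 on the log2(FPKM + 1) scale over 20 genes tested of 29 matched (−0.52 after rescaling, −0.29 after quantile normalization and −0.54 with voom, scalings described below), and 8 of the 29 were listed at 0 in every library. That of root markers was −0.09 over 13 of 21, with 2 listed at 0. In bulk tissue, fewer cells of a type and less RNA per cell cannot be told apart.

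No gene passed. Of 22648 genes tested, 0 (0.0%) had an adjusted p under 0.05 (limma on log2(FPKM + 1), Benjamini-Hochberg over all genes), although 4278 (18.9%) had an unadjusted p under 0.05. The smallest adjusted p was 0.0577. The unadjusted count was 2016 (8.9%) higher and 2262 (9.99%) lower without Pi. A model of 4 group means passed 12 genes, library weights passed 19, and leaving out phr2 no Pi 3 with its closest library, WT no Pi 2, passed 21. Below, a gene is called clear when its 3 no Pi values lie all above or all below its 3 control values within WT and again within phr2, in the same direction. A set of 571 genes (2.52%) was clear, 178 (0.786%) higher and 393 (1.74%) lower without Pi, and none of them passed the adjusted test. These are descriptions of the libraries, not calls.

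The direction of the majority depended on how libraries were scaled. With the FPKM sums of all libraries set equal, 341 genes were clear and higher and 183 clear and lower, and voom on the recovered fragments gave 371 and 169. Quantile normalization kept the deposited balance, at 169 higher and 339 lower. The median of all genes was 0.01 on the deposited scale, 0.26 after rescaling, −0.01 after quantile normalization and 0.31 with voom. Under all 4 scalings 252 genes were clear in the same direction, 122 higher and 130 lower, and these are called scaling-stable below. This set was defined after the data had been seen.

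**Figure D1:**
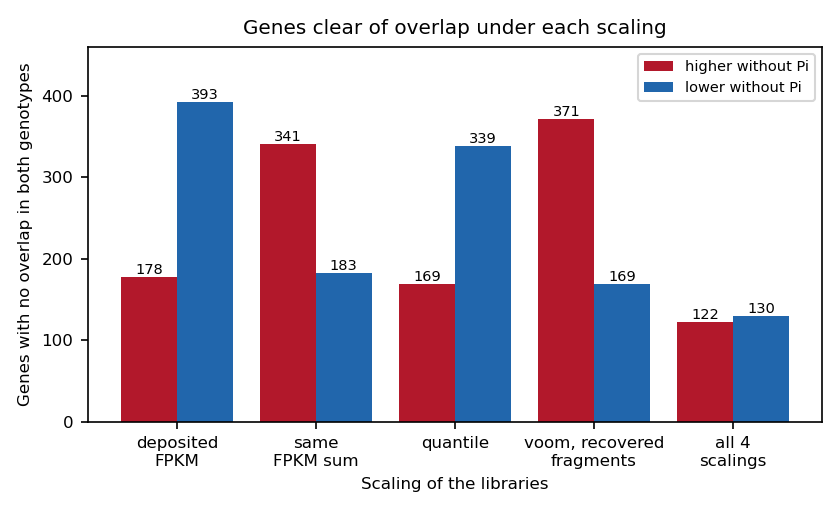
Number of genes (y axis) whose 3 no Pi and 3 control libraries do not overlap within WT and within phr2, in the same direction, under 4 scalings of the libraries and under all of them (x axis). Lower genes outnumber higher ones on the deposited scale (393 against 178), and the order turns after rescaling (183 against 341).

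The responses in WT and phr2 were only loosely alike across genes. Within WT alone, 5619 genes (24.8%) were free of overlap, and within phr2 alone 2208 (9.75%). With 3 libraries against 3, some genes are free of overlap by chance alone. How much of either set that makes up was not tested, so neither is a count of responding genes. The 571 shared genes made up 10.2% of the first set and 25.9% of the second, and a further 107 genes were free of overlap in both genotypes but in opposite directions. Across the 22648 genes the log2 difference in WT and that in phr2 had a Pearson r of 0.25, and 61.5% of genes had the same sign. Genes are not independent replicates, and no p is given. Without phr2 no Pi 3, r was 0.27, and without WT control 1 it was 0.11 with 57.6% of genes of the same sign.

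Among the clear genes the difference was mostly larger in WT. Its median was 1.23 in WT and 0.70 in phr2 for the higher genes, and −1.36 and −0.77 for the lower ones. It was larger in WT for 147 of 178 higher and 347 of 393 lower genes, against 15868 of all 22648 genes. No gene passed the test of the interaction, the difference between the 2 responses (0 genes, 0.0%, at an adjusted p under 0.05 with limma, and 2002, or 8.84%, at an unadjusted p under 0.05). The lower genes were also the more abundant ones, with a median of 36.7 FPKM against 15.7 FPKM for the higher genes and 11 FPKM for all genes tested.

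**Figure D2:**
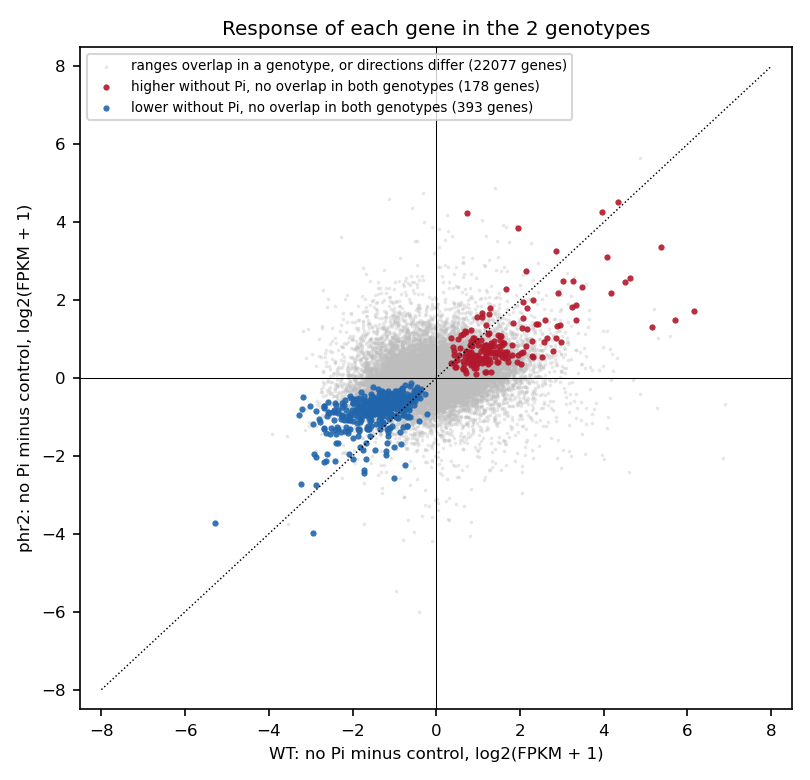
Each point is a gene, with its difference between no Pi and control in WT (x axis) and in phr2 (y axis), both on the log2(FPKM + 1) scale; the dotted line marks equal differences. The 178 genes higher (red) and 393 lower (blue) in both genotypes lie in opposite corners, and 147 and 347 of them have the larger difference in WT.

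The gene with the smallest p was Os07g0147550 (chromosome 7, 2456969 to 2458136 as the table gives it, assembly not given in the sources used here). It encodes a photosystem II 10 kDa polypeptide, a small protein of the oxygen-evolving side of photosystem II. It was at 0.303, 0.771 and 0.873 FPKM in WT control and at 82.0, 44.9 and 16.4 FPKM in WT no Pi. In phr2 it went from 1.1, 1.91 and 1.92 FPKM in control to 15.8, 18.8 and 10 FPKM without Pi. All 6 no Pi libraries were above all 6 controls. The difference was 3.60 with an SE of 0.45 (limma adjusted p = 0.0577), and the gene passed in 8 of 25 alternative fits, more than any other. In all, 42 genes passed in at least 1 of those fits, 8 of them in more than 1. Its neighbour Os07g0147500, annotated as the same polypeptide and looked up after the first was seen, had the largest difference of all genes tested, 5.27. It ran from 49.9 to 87.3 FPKM in phr2 control and from 2833 to 4267 FPKM in phr2 no Pi. Its WT ranges overlapped, from 0.614 to 1309.6 FPKM in control and from 1128 to 6121 FPKM without Pi. The third gene so annotated, Os08g0200300, differed by −0.58. How reads were shared among these like copies is not given, so the values of each are uncertain.

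The chloroplast NDH complex, which returns electrons from photosystem I to the plastoquinone pool and so drives cyclic electron flow, lay lower in both genotypes. This list was written after the clear genes had been seen. Of 16 members tested, 7 were clear and lower and none clear and higher, against 1.74% and 0.786% of all genes. The median was −1.28, with −1.78 in WT and −0.68 in phr2, and 13 of 16 were below 0 in both (81.2%, against 30.2% of all genes). It was −0.95 after rescaling, −0.82 after quantile normalization and −0.98 with voom, with 5, 4 and 6 members clear and lower. The subunit of subcomplex B 3, Os07g0489800, was at 462, 369 and 284 FPKM in WT control and 35, 152 and 19.7 FPKM in WT no Pi. Its phr2 values were 526, 314 and 448 FPKM in control and 50.7, 94.8 and 266 FPKM without Pi. Each no Pi library was below each control library of its genotype. The subunit of subcomplex B 1, Os08g0276100, and Os03g0748300, a NDH-DEPENDENT CYCLIC ELECTRON FLOW 5 protein, differed by −1.73 ± 0.34 and −1.60 ± 0.33 (SE). Neither passed (limma adjusted p = 0.121 for both), and both were scaling-stable, as were 4 of the 7.

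Proteins of the thylakoid lumen and of cytochrome cofactor assembly, another list written after the clear genes were seen, had a median of −0.74, with −1.18 in WT and −0.47 in phr2. Of the members, 9 of 20 (45.0%, against 1.74% of all genes) were clear and lower. After rescaling, quantile normalization and voom these numbered 4, 5 and 4, with medians of −0.42, −0.57 and −0.45, and 3 were scaling-stable. A thylakoid lumenal 19 kDa protein, Os08g0504500, was at 739, 591 and 284 FPKM in WT control against 174, 111 and 73.1 FPKM without Pi. Its phr2 values were 269, 499 and 414 FPKM in control and 231, 193 and 162 FPKM without Pi. The groups did not overlap in either genotype, and the difference was −1.56 ± 0.33 (SE, limma adjusted p = 0.121).

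Light harvesting and photosystem genes had a median of −0.62 over 46 members, with −1.07 in WT and −0.27 in phr2. Of these members, 32 were below 0 in both genotypes (69.6%, against 30.2% of all genes). The median was −0.30 after rescaling, −0.24 after quantile normalization and −0.34 with voom. Of the members 3 (6.52%, against 1.74% of all genes) were clear and lower and 1 (2.17%, against 0.786%) clear and higher. The lower ones included an NDH gene counted above, Os07g0105600, and the photosystem I antenna protein of Os09g0439500, at −2.88 in WT and −0.85 in phr2. The higher one was Os07g0147550, the gene with the smallest p, at 4.64 in WT and 2.56 in phr2. The 18 Calvin cycle genes, which fix carbon dioxide, had none clear and a median of −0.84, with −1.19 in WT and −0.35 in phr2. Their median was −0.51, −0.42 and −0.53 under the same scalings. The smallest p in that list belonged to Os03g0781400, a ribose-5-phosphate isomerase, at −0.98 ± 0.26 (SE, limma adjusted p = 0.137). The mesophyll markers lay lower beside these lists and share light harvesting genes with them, and their part in the result was not tested.

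In chlorophyll synthesis 2 of 26 genes (7.69%, against 1.74% of all genes) were clear and lower and 0 clear and higher. Both act at successive steps of the magnesium branch. The list median was −0.49, with −0.84 in WT and −0.21 in phr2. It was −0.18 after rescaling, −0.28 after quantile normalization and −0.23 with voom. The ChlI subunit of magnesium chelatase (ETIOLATED LEAF AND LETHAL, Os03g0563300), which inserts magnesium into the porphyrin ring, was at 526, 829.7 and 645 FPKM in WT control and 213, 264.5 and 208 FPKM without Pi. The phr2 libraries held it at 569, 769 and 552 FPKM in control and 346, 467 and 398 FPKM without Pi. All 6 no Pi libraries were below all 6 controls. The methyltransferase of the next step, YELLOW-GREEN LEAF 18 (Os06g0132400), differed by −3.21 in WT and −0.80 in phr2. Neither gene passed (limma adjusted p = 0.121 for both), and neither was scaling-stable.

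Photorespiration, the recycling of the 2-carbon product that Rubisco makes from oxygen, had 3 of 19 members (15.8%, against 1.74% of all genes) clear and lower, again in a list written afterwards. They were 2 glycine dehydrogenase genes (Os01g0711400 and Os06g0611900) and the serine-glyoxylate aminotransferase Os08g0502700, with differences from −1.23 to −1.10 in WT and from −0.86 to −0.40 in phr2. None was scaling-stable. The list median was −0.28 on the deposited scale, with −0.68 in WT and −0.03 in phr2. It was 0.05 after rescaling, −0.11 after quantile normalization and 0.03 with voom, where that of all genes was 0.26, −0.01 and 0.31.

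Lists of plastid gene expression, also written afterwards, depended more on the scaling. Of 430 organelle RNA factors, mainly pentatricopeptide repeat (PPR) proteins that process plastid and mitochondrial transcripts, 18 (4.19%, against 1.74% of all genes) were clear and lower, none clear and higher, with a median of −0.23. That median was −0.36 in WT and −0.13 in phr2. After rescaling 6 were clear and lower and 1 clear and higher, with a median of −0.01, and with voom 7 and 1, with a median of −0.03. The median of all genes was 0.26 after rescaling and 0.31 with voom. After quantile normalization 15 were clear and lower and 0 clear and higher, with a median of −0.29. The scaling-stable members numbered 4. The PPR gene Os03g0856100 was at 435, 242 and 81.3 FPKM in WT control, 27.5, 48.5 and 14.7 FPKM in WT no Pi, 156, 194 and 136 FPKM in phr2 control and 36.8, 22.3 and 70.9 FPKM in phr2 no Pi. All 6 no Pi values lay below all 6 controls. It differed by −2.45 ± 0.44 and a gene of the mitochondrial termination factor family, Os02g0749800, by −1.81 ± 0.30 (SE, limma adjusted p = 0.111 and 0.0897). Of 74 plastid ribosomal protein genes, 58 were below 0 in both genotypes (78.4%, against 30.2% of all genes). Their median was −0.62, with −0.87 in WT and −0.40 in phr2, and it was −0.34 after rescaling. Of them 4 (5.41%, against 1.74% of all genes) were clear and lower on the deposited scale and 0 under each of the other scalings. CCT MOTIF FAMILY GENE 3 (Os02g0148000), whose closest named protein in the table is CHLOROPLAST IMPORT APPARATUS 2, a regulator of plastid protein import in Arabidopsis, differed by −2.26 ± 0.41 and by about as much in each genotype, −2.41 and −2.12 (limma adjusted p = 0.111). It was not clear after rescaling or with voom.

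**Figure D3:**
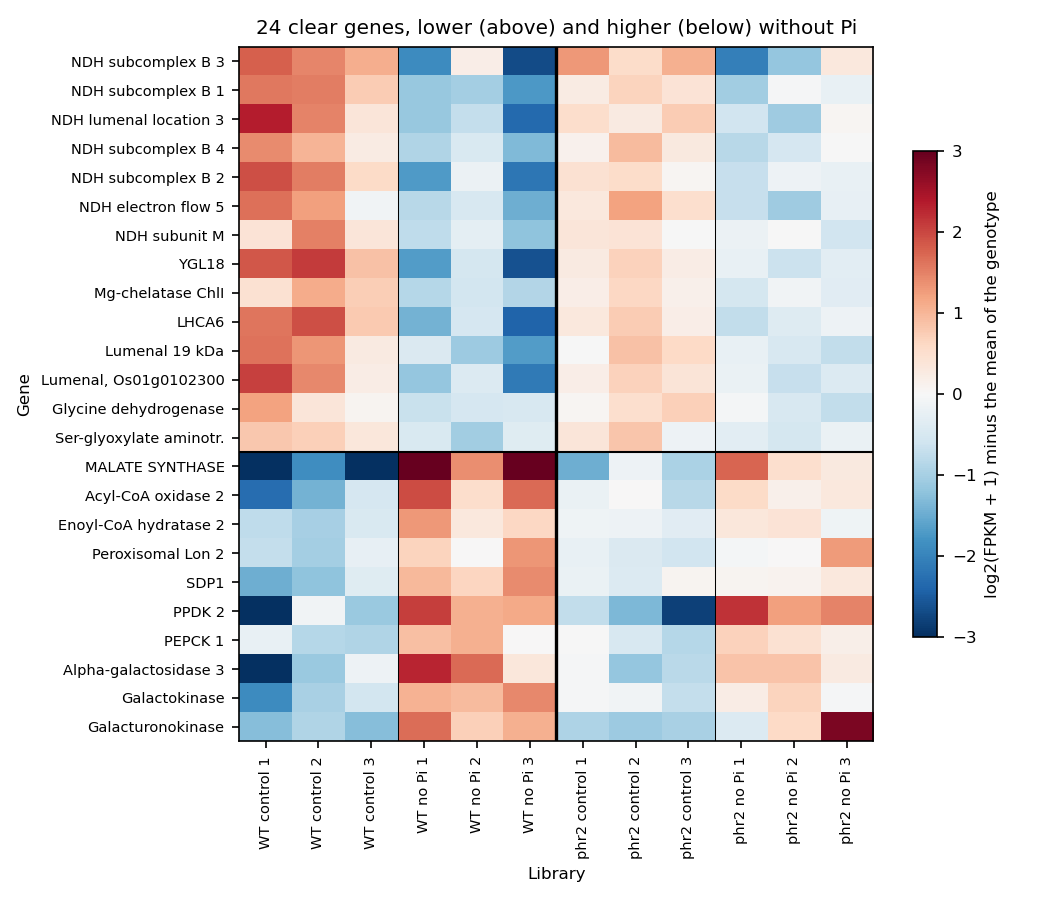
Level of 24 clear genes in the 12 libraries (columns), as log2(FPKM + 1) minus the mean of the gene over the 6 libraries of that genotype; the colour scale ends at −3 and 3. The genes were picked from the clear ones, so the direction of each is fixed by that choice: the 14 in the upper block are mostly red in controls and blue without Pi, and the 10 in the lower block run the other way. The colours are mostly paler in phr2, with PPDK 2 as an exception.

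Cytosolic ribosomal proteins, which make up the translating ribosome with its RNA, lay lower with few exceptions. Of 208 members, 175 were below 0 in both genotypes (84.1%, against 30.2% of all genes) and 9 above 0 in both. A total of 36 (17.3%, against 1.74% of all genes) were clear and lower, and none clear and higher, with differences from −1.92 to −0.55 in WT and from −0.95 to −0.45 in phr2. The median was −0.67, with −0.84 in WT and −0.52 in phr2. The 40S ribosomal protein SA gene Os07g0616600 and RIBOSOMAL PROTEIN S3AB (Os12g0406200) differed by −1.22 ± 0.30 and −0.96 ± 0.22 (SE, limma adjusted p = 0.123 and 0.121). The scaling weighed on this list more than on the NDH list. Its clear and lower members numbered 13 after rescaling, 7 after quantile normalization and 5 with voom, and 3 were scaling-stable. Its median stayed below 0 under all 4 scalings, from −0.67 to −0.35. Ribosome assembly factors, in a list written afterwards, had 8 of 64 members (12.5%, against 1.74% of all genes) clear and lower on the deposited scale. After rescaling 1 was clear and lower, with voom 2, and 1 was scaling-stable. After quantile normalization 7 were clear and lower and 1 clear and higher. The median of that list was −0.16, and 0.10 after rescaling and 0.08 with voom, where that of all genes was 0.26 and 0.31. After quantile normalization it was −0.20. NIP7, Os07g0670600, which acts in assembly of the large subunit, differed by −1.80 in WT and −1.09 in phr2.

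Pyruvate, phosphate dikinase (PPDK) makes phosphoenolpyruvate from pyruvate by a reaction that bypasses pyruvate kinase. The gene annotated as PPDK 2, Os03g0432100, was at 0.362, 9.53 and 4.18 FPKM in WT control and 46.2, 22.6 and 24 FPKM in WT no Pi. The phr2 values were 4.38, 2.54 and 0.288 FPKM in control and 39.1, 20.1 and 24 FPKM without Pi. The 6 no Pi values lay above all 6 controls, and the differences were 2.85 in WT and 3.25 in phr2 (3.05 ± 0.49, SE, limma adjusted p = 0.0730). Its annotated coding length is 351 bases. PPDK 1 (Os05g0405000), looked up afterwards, differed by −0.11. A phosphoenolpyruvate carboxykinase gene, Os10g0204400, also chosen afterwards, differed by 1.32 in WT and 0.89 in phr2.

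In fatty acid breakdown and the glyoxylate cycle, which turn lipid carbon into organic acids in the peroxisome, 3 of 18 members (16.7%, against 0.786% of all genes) were clear, all higher. Of the 18, 11 were above 0 in both genotypes (61.1%, against 31.4% of all genes) and 0 below 0 in both (0.0%, against 30.2%). The median was 0.60, with 1.22 in WT and 0.22 in phr2. It was 0.91 after rescaling, where that of all genes was 0.26, and 2 of the 3 clear genes were scaling-stable. MALATE SYNTHASE (Os04g0486950) was at 1.94, 12 and 3.66 FPKM in WT control and 1153, 124.5 and 439 FPKM without Pi. In phr2 it was at 6.27, 17.0 and 9.43 FPKM in control and 66.5, 27.7 and 23.8 FPKM without Pi. The groups did not overlap, and the differences of 6.15 and 1.71 were far apart. The gene did not pass (3.93 ± 0.81, SE, limma adjusted p = 0.121), and for the other enzyme particular to the glyoxylate cycle, ISOCITRATE LYASE (Os07g0529000, looked up afterwards), the difference was 6.89 in WT and −0.66 in phr2. Acyl-coenzyme A oxidase 2 (Os11g0605500) and enoyl-CoA hydratase 2 (Os09g0544900), both steps of beta-oxidation, were the other clear members, at 0.69 and 0.42 in phr2. The peroxisomal Lon protease 2 gene, Os09g0533400, and a gene annotated as the lipase SDP1, Os01g0762000, both chosen afterwards, were clear too, at 1.32 and 2.02 in WT and 0.83 and 0.35 in phr2.

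Enzymes of galactose, galacturonic acid and raffinose sugar metabolism had 4 of 13 members (30.8%, against 0.786% of all genes) clear and higher. This list was written afterwards. After quantile normalization 2 were clear and higher, and 2 were scaling-stable. The list median was 0.47, with 0.12 in WT and 0.57 in phr2, and it was 0.16 without phr2 no Pi 3. Galacturonokinase (Os04g0608100) was at 47.8, 62.7 and 47.6 FPKM in WT control and 375, 194 and 248 FPKM without Pi. Its level in phr2 was 14.3, 12.6 and 13.8 FPKM in control and 21.0, 42.9 and 204 FPKM without Pi. The 204 FPKM belongs to phr2 no Pi 3, the library that resembles WT. The gene differed by 2.15 ± 0.43 (SE, limma adjusted p = 0.121). Alpha-galactosidase 3 (Os07g0679300), galactokinase (Os03g0832600) and a galactinol-sucrose galactosyltransferase (Os04g0481100) differed by 1.33, 0.57 and 0.84 in phr2, each less than in WT.

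SULFURTRANSFERASE 7 (Os12g0428000), described as senescence-associated, was the clear member of 29 genes of senescence and chlorophyll breakdown (3.45%, against 0.786% of all genes clear and higher). It was at 14.1, 176 and 58.5 FPKM in WT control, 669.7, 276 and 369 FPKM in WT no Pi, 45.4, 124 and 27.7 FPKM in phr2 control and 168, 288 and 318 FPKM in phr2 no Pi. Within each genotype no values overlapped, though the 168 FPKM of a phr2 no Pi library lay below the 176 FPKM of a WT control. The difference was 2.55 ± 0.54 (SE, limma adjusted p = 0.121). Autophagy genes, which deliver cell contents to the vacuole, had a median of 0.34 and 17 of 31 above 0 in both genotypes (54.8%, against 31.4% of all genes), with none clear. That median was 0.65 in WT and 0.09 in phr2. After rescaling and with voom it was 0.60 and 0.66, where that of all genes was 0.26 and 0.31. In each of these 3 members were clear and higher, beside 341 and 371 of all 22648 genes. After quantile normalization the median was 0.34 with 0 clear.

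**Figure D4:**
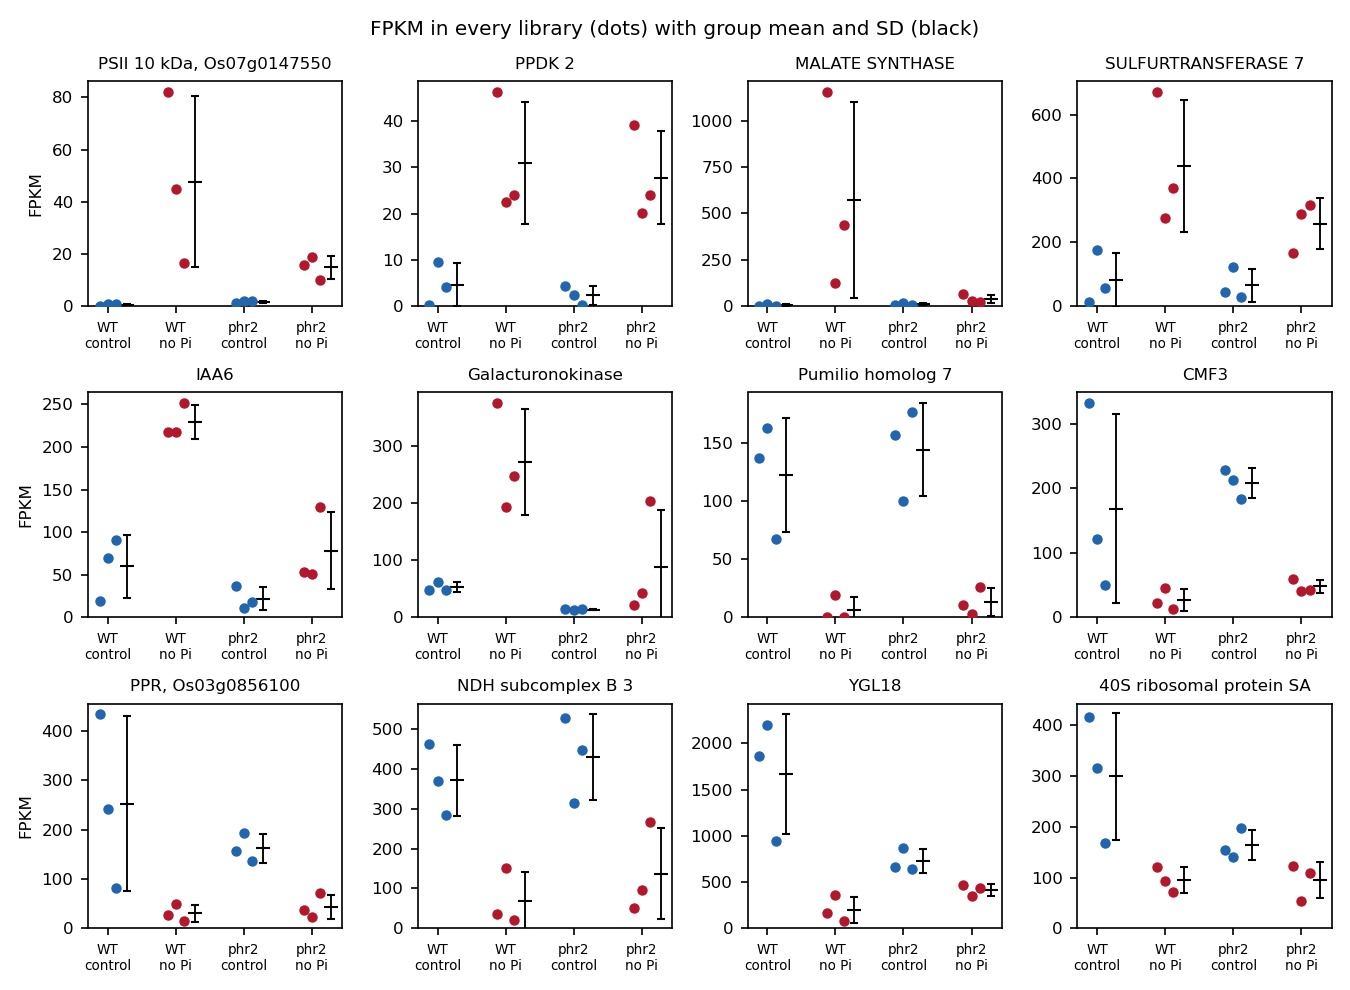
FPKM (y axis, from 0) of 12 clear genes in every library, with controls in blue and no Pi in red; the black bar gives the group mean and SD of 3 libraries. In each panel the no Pi and control dots of a genotype do not overlap, with MALATE SYNTHASE up to 1153 FPKM in WT and 66.5 FPKM in phr2.

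Auxin response genes, in a list written afterwards, had 4 of 44 members (9.09%, against 0.786% of all genes) clear, all higher, of which 3 were scaling-stable. Aux/IAA proteins repress auxin-induced transcription and are destroyed when auxin is perceived. IAA6 (Os01g0741900) was at 19.2, 69.6 and 91.3 FPKM in WT control and 218, 218 and 252 FPKM without Pi. In phr2 it was at 36.8, 11.2 and 17.7 FPKM in control and 52.8, 51.0 and 130.1 FPKM without Pi. The separation held within each genotype, with differences of 2.18 and 1.80 (1.99 ± 0.41, SE, limma adjusted p = 0.121). IAA18 and IAA30 differed by 1.14 and 0.90 in phr2, and SMALL AUXIN-UP RNA 29 (Os06g0714300) by 2.53 ± 0.45 over both genotypes (limma adjusted p = 0.111). In the table's own family column, 3 of 20 AUX/IAA genes were clear and higher. Over all 1278 genes with a regulator family, 12 were clear and higher and 15 clear and lower, beside 0.786% and 1.74% of all genes.

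Several of the genes with the smallest p belong to no list. Os12g0493900, annotated as a pumilio homologue, a kind of protein that binds RNA, had the largest clear difference, −4.50 ± 0.70 (SE, limma adjusted p = 0.0711). It was at 137, 163 and 67.7 FPKM in WT control, 0.2, 18.8 and 0.11 FPKM in WT no Pi, 156, 99.8 and 176 FPKM in phr2 control and 10.2, 3.1 and 26.1 FPKM in phr2 no Pi. A peroxidase gene, Os06g0306300, a histone H2B gene, Os09g0570850, and a gene like the glucosyltransferase BX8, Os11g0444000, differed by −2.28, −2.0 and −1.54 (limma adjusted p = 0.0705, 0.0705 and 0.0711). The RADIALIS-like MYB gene Os05g0567600 differed by −2.87 in WT and −2.74 in phr2. The other lower genes named by the rule were Os11g0237700 (mini-ribonuclease 3), Os11g0581900 (LIFEGUARD 3), Os04g0568600 (a hexuloisomerase-like gene) and HPPD INHIBITOR SENSITIVE 1 (Os02g0280700), at −1.43, −1.88, −1.92 and −1.31. On the higher side, a gene like the blast resistance gene Pib (Os08g0539700) was below 1 FPKM in all 6 controls and at 20.5, 10 and 15.3 FPKM in WT no Pi and 3.02, 1.57 and 3.05 FPKM in phr2 no Pi. It differed by 2.41 ± 0.36 (SE, limma adjusted p = 0.0705).

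The abundant UNIVERSAL STRESS-INDUCED PROTEIN A gene (Os05g0355400) was at 51.2, 214 and 481 FPKM in WT control and 1521, 2832 and 1782 FPKM without Pi. Levels in phr2 were 304, 194 and 325 FPKM in control and 572, 1753 and 2463 FPKM without Pi. It differed by 2.91 ± 0.52 (SE, limma adjusted p = 0.111). BENZOTHIADIAZOLE-INDUCED SAMT1 (Os11g0256900), which methylates salicylic acid, differed by 2.61, and the others named on this side, Os07g0664600 (secoisolariciresinol dehydrogenase), Os07g0604000 (6-phosphogluconolactonase 2) and Os03g0401100 (a protein kinase), by 3.59, 2.77 and 1.88. All 12 of the higher genes named by the rule were scaling-stable, and 10 of the 12 lower ones.

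For the genes best known for Pi starvation the counts were too small to set against the background, at which 2.52% of all genes were clear. Of 15 Pi signalling genes, 15 Pi transporters and 28 acid phosphatases and S-like RNases, none was clear in either direction, and their medians were 0.14, 0.04 and 0.13 on the deposited scale and 0.45, 0.32 and 0.31 after rescaling, where that of all genes was 0.26. The smallest p in each belonged to NITROGEN LIMITATION ADAPTATION (Os07g0673200), a ubiquitin ligase that targets Pi transporters, at 1.43 ± 0.45, to the mitochondrial carrier of Os03g0263400 at −1.22 ± 0.30, and to PURPLE ACID PHOSPHATASE 10D (Os12g0637200) at −1.71 ± 0.45 (SE, limma adjusted p = 0.161, 0.123 and 0.137). Membrane lipid remodelling, which replaces phospholipids with galactolipids and sulfolipids, had none of 31 clear and a median of 0.27, or 0.50 after rescaling. Its digalactosyldiacylglycerol synthase 1 gene (Os04g0416900) differed by 1.49 in WT and 1.38 in phr2, with overlap (limma adjusted p = 0.143). In the list of Pi-sparing glycolysis, PPDK 2 was clear and higher and the citrate synthase gene Os11g0538900 clear and lower, at −0.58 and −0.48.

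**Figure D5:**
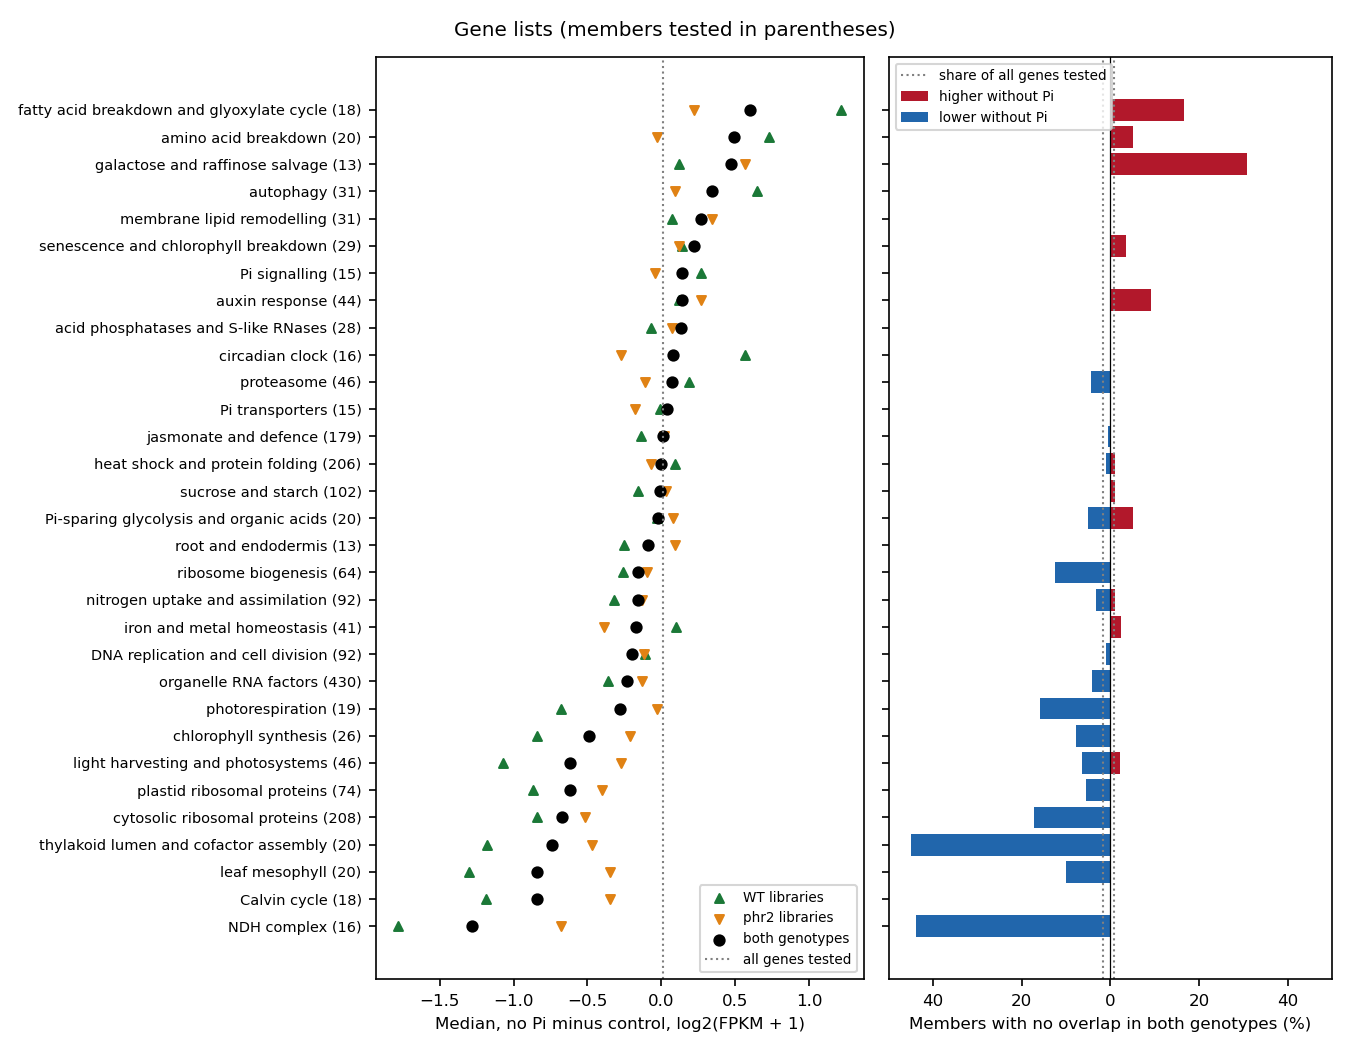
All values are on the deposited scale. Left, median difference between no Pi and control, log2(FPKM + 1), of each gene list in both genotypes together, in WT and in phr2; right, share of members clear of overlap in both genotypes, higher (red) or lower (blue), in percent. Dotted lines mark all genes tested; the NDH complex lies lowest, at −1.28, and fatty acid breakdown highest, at 0.60.

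In the remaining lists the counts of clear genes were too small to set against the background. Their shares ran from 0.0% to 5.0% clear and higher and from 0.0% to 4.35% clear and lower. Those of all genes were 0.786% and 1.74%. The 5.0% was 1 of 20 amino acid breakdown genes and the 4.35% was 2 of 46 proteasome genes. Proteasome, heat shock, jasmonate and defence, circadian clock, sucrose and starch, iron, nitrogen, amino acid breakdown and DNA replication lists had from 0 to 4 clear members each, of 16 to 206 tested. In the nitrogen list 3 of 92 were clear and lower and 1 clear and higher, all 4 annotated as members of the NRT1/PTR transporter family. The lowest p belonged to Os01g0872100, which differed by −1.72 in WT and −2.36 in phr2 (limma adjusted p = 0.111). In amino acid breakdown the clear gene was Os12g0264500, annotated as CHY1, a 3-hydroxyisobutyryl-CoA hydrolase, at 1.37 and 0.94. In the iron list NICOTINAMINE AMINOTRANSFERASE 4 (Os06g0345200), annotated as a nicotianamine aminotransferase, a step towards phytosiderophores, was clear and higher at 1.6 and 0.90. The clear genes were spread over the genome, at 1.77% to 3.17% of the genes tested on each of the 12 chromosomes.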

How the data were processed

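Leaf mRNA of 12 rice libraries in 4 groups of 3 was analysed. The authors deposited 1 table of FPKM for 46947 transcripts; Bowtie 0.12.2, HISAT2 2.0 and StringTie 1.3.0 are the tools listed, per the submitters' processing notes. These list the mouse build mm8, although the table carries rice identifiers, and no source used here names a rice assembly or the use of strand. The deposited FPKM values times coding length were whole multiples of 1 fragment for 100% of values above 0 (tolerance 0.01), which gave the reads counted per library, 10109727 to 13122430. Counts were recovered from FPKM rather than deposited, so they serve only an alternative fit.

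Transcript FPKM were added up by gene (39967 genes), and 22648 genes with at least 1 FPKM in at least 3 libraries were kept, among them 1651 unannotated loci and 2938 genes with several transcripts. A gene listed at 0 is not read as unexpressed. The log2(FPKM + 1) values entered limma 3.58.1 (R 4.3.3), with a variance trend and terms for genotype and Pi supply (9 residual and 3.86 prior degrees of freedom). Differences are no Pi minus control on that scale, which understates changes of low genes. Library measures were compared by exact permutation within genotypes (400 arrangements).

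Same-numbered libraries did not deviate together throughout (correlations from −0.432 to 0.301 over 18 pairs, 5 above 0.1), so replicate numbers were not used as pairs in the fit reported. The labels do not say whether the numbers mark a shared batch or day, and this check cannot tell.

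The gene sets and lists were chosen with earlier results of these data known. There are 23 lists matched by word patterns in gene names and descriptions, and 8 written after the clear genes were seen. Named genes are PHR2, DGP1 and GLK2, the 12 clear genes of smallest p in each direction with a mean of at least 5 FPKM without Pi or in control and a description, and the 2 genes of smallest p in each list; others are said to be chosen afterwards or are given as clear members of a list. Descriptions come from the table. Sequences and promoters were not used here. Figures were drawn with matplotlib 3.10.9.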

Additional observations from a re-analysis of the deposited data

Results flagged for a closer look

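In the 6 control libraries, DEEP GREEN PANICLE 1 (DGP1, Os01g0837600), described in the table as a repressor of chlorophyll synthesis, reached 13.8 on the log2(FPKM + 1) scale in WT control 1, which is 13943 FPKM. That library stood apart from the other 5 controls, which lay at 169.6 to 473 FPKM. GOLDEN2-LIKE2 (GLK2, Os01g0239000), a transcription factor of photosynthesis genes, stood apart in the same library, at 7.97 on that scale and 249 FPKM, against 39.3 to 70.1 FPKM in the others. Of 62 groups of 6 libraries examined by Dixon's test, these 2 were past its 95% limit, where chance flags about 1 in 20 groups. Neither gene passed the test between no Pi and control (−0.64 ± 0.79 and 0.18 ± 0.39, SE, limma adjusted p = 0.683 and 0.828).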

How the results depend on the processing

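Against 0 genes passing in the fit reported, 1 gene passed with a filter of at least 5 FPKM in at least 6 libraries, 1 with FPKM sums set equal, 1 after quantile normalization and 1 in phr2 libraries alone. The model of 4 group means passed 12, of which 11 were clear, and library weights 19 and the fit without WT no Pi 2 and phr2 no Pi 3 passed 21, all clear. Leaving out 1 replicate at a time, from 0 to 2 genes passed, with as many clear, and from 0 to 26 passed the interaction, 26 without phr2 control 1 and 5 without WT no Pi 2; 0 of these passed the shared effect. The clear count of 571 ran from 620 to 1362 in those fits, and was 1563 without the pair above and 1399 without WT control 1 and phr2 no Pi 3. Single libraries that raised it by over 1.5 times were WT control 3 (975), phr2 control 1 (1362), phr2 control 3 (959), phr2 no Pi 1 (1272) and phr2 no Pi 3 (1092); fewer libraries make a gap easier. It was 252 under all 4 scalings. Of 22 lists, 10 had a median below 0, and from 9 to 14 did with 1 replicate left out. With FPKM sums set equal 4 did and with voom 4, where the median of all genes was 0.26 and 0.31. A replicate block left 0 genes passing (4040 at an unadjusted p under 0.05, against 4278) and 571 clear. DGP1, at −0.64, turned to 0.19 without WT control 1 (range −1.02 to 0.19 over left-out replicates) and 0.26 in phr2 alone. GLK2, at 0.18, turned to −0.04 without WT control 3 (range −0.04 to 0.52) and −0.01 in WT alone. Of the other single-gene values, 2073 stayed on the same side and 31 passed. Of the list medians, 797 moved by less than 1 SD between libraries of a group and 40 by more. The cause of these changes was not tested.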

Other observations

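Among clear genes outside every list, chosen after their values were seen, several were low in controls. BURP domain-containing protein 16 (Os10g0409400) was at 0.0, 31.3 and 34.2 FPKM in WT control and 1625, 105 and 453 FPKM without Pi, and at 0.52 FPKM or less in phr2 control against 3.61, 2.05 and 117 FPKM without Pi. The gene annotated as a lysosomal amino acid transporter 1, Os01g0266800, was at 1.81, 2.65 and 10.9 FPKM in WT control and 243, 76.6 and 285 FPKM without Pi. In phr2 it was at 28.7, 8.39 and 11.4 FPKM in control and 31.1, 41.6 and 37.9 FPKM without Pi. An inosine-5'-monophosphate dehydrogenase gene (Os02g0818000), an enzyme of guanine nucleotide synthesis, was abundant throughout, at 514 to 2200.2 FPKM in the 6 controls and 2804 to 6387 FPKM in the 6 no Pi libraries. MOTHER OF FT AND TFL1 (Os06g0498800), of the family of flowering regulators, differed by 1.28 in WT and 1.80 in phr2. All 4 were clear under all 4 scalings, and none passed (limma adjusted p = 0.128, 0.121, 0.121 and 0.121).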
